A study of Mus musculus with 8 samples.

Results

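GLI2+ stromal cells of the adult mouse lung were described from the 4 control libraries among the 8 samples of the series. The members were chosen by label alone: all 4 samples labelled control were taken, and the 4 samples whose Hedgehog pathway was switched on by the SmoM2 allele were not used. The control animals were adult Gli2creERT2-tdt:R26RYFP mice, in which a tamoxifen-inducible Cre expressed from the Gli2 locus switches on a yellow fluorescent protein (YFP) reporter. Whole lungs were digested, and live single YFP+ cells were sorted, per the labels' protocols, and their messenger RNA was enriched on oligo(dT) beads for sequencing. Tamoxifen dosing is stated for the SmoM2 animals, and that of the controls is not given in the sources used here. The sort therefore takes every cell in which the Gli2-driven Cre has acted, whichever kind of cell it is, and a bulk library averages over them. The titles number 4 different animals, but the data columns carry numbers from 1 to 4 that could not be tied to them, so the libraries are called control 1 to control 4 after their columns. With a single group there is no comparison of conditions and no test: every value below is a level, given in every library, or a spread between libraries.

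The Hedgehog pathway carries signals from epithelial cells to the lung's mesenchyme. Hedgehog ligands bind Patched receptors, which releases Smoothened, and the Gli transcription factors then switch on target genes, of which Gli1, Ptch1 and Hhip are the standard readouts. Lung stroma holds several fibroblast types: alveolar fibroblasts next to the gas-exchange surface, adventitial fibroblasts in the cuffs around vessels and airways, and smooth muscle and related cells along the airway wall. These cells make the collagens and elastic fibres of the lung and send growth factors to its epithelium.

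Levels are in CPM, the deposited estimated count of a gene per 1000000 counts of its library, after TMM scaling between libraries. Because longer transcripts collect more fragments, levels of different genes are compared as CPM per kilobase (kb) of merged exon, and an order by plain CPM is given only to show which genes took most of the counts. The libraries summed to 92.8, 101.2, 95.7 and 111.6 M units of estimated count (1 M is 1000000). Steps in the low values were read as about 4 units per sequenced fragment, which corresponds to 23.2, 25.3, 23.9 and 27.9 M fragments. The fragment numbers rest on this inference. A level at or under 3 fragments, 0.103 to 0.131 CPM depending on the library, was treated as not distinguishable from 0. Counting error is set by the fragments, and 5 CPM corresponds to at least 114 fragments in each library. The kit does not mark strand, so reads from a gene and an overlapping antisense gene cannot be told apart.

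Control 4 stood apart from the other 3 libraries. Over the 11421 genes whose mean reached 5 CPM, control 4 was at least 2-fold away from control 2 for 9.10% and from control 3 for 7.97% of genes, and from control 1 for 4.99%. The pairs without control 4 differed by that much for 2.91% to 3.95% of genes. In a check for a library deposited in duplicate, chi-square statistics over their degrees of freedom lay between 35.2 and 105 for all pairs. Repeat sequencing of a single library would lie near 1, and exact copies lower. The check used counts divided by the inferred 4 units per fragment. That check sets the libraries against counting noise alone and says nothing else of how the animals differ. Each library also carried RNA of other cell types. Summed over 18 epithelial markers, the libraries held 412, 488, 501 and 1736 CPM, so that control 4 was 4.21 times control 1. Of these markers, Foxj1 of ciliated cells was under 1 CPM on average, and Epcam, which defines epithelium, had 1.11, 1.90, 3.13 and 2.92 CPM. The 15 endothelial markers summed to 137, 179, 197 and 333 CPM, again with control 4 highest, and Emcn had 0.18, 0.99, 0.79 and 1.59 CPM. The 24 immune markers summed to 977, 738, 914 and 884 CPM, and Ncr1 of natural killer cells was under 1 CPM on average. Fewer cells of a type and less RNA per cell cannot be told apart in these bulk libraries. The part of other cells in the results below was not tested. Xist, the RNA expressed from an inactive X chromosome, had 0.70, 1129, 0.81 and 848 CPM, and the Y-linked gene Ddx3y had 93.4, 0.22, 118 and 0.16 CPM. Xist was high in controls 2 and 4 and Ddx3y in controls 1 and 3, while the labels give no sex.

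The cells carried the markers of GLI2+ lung stroma in every library. Gsn encodes the actin-severing protein gelsolin and had 29906, 30789, 33414 and 25622 CPM. It was the most abundant gene in each library and alone took 2.69% to 3.19% of the counts. Pdgfra, the receptor for platelet-derived growth factor A and a marker of lung fibroblasts, had 1856, 1354, 1767 and 2065 CPM. Inmt, a methyltransferase typical of alveolar fibroblasts, had 3418, 2852, 3213 and 4727 CPM and was highest in control 4. Boc, a Hedgehog co-receptor, had 387, 480.2, 433 and 332 CPM. Hhip, which binds and sequesters Hedgehog ligands, had 329, 498, 259 and 337 CPM and was highest in control 2. None of these 5 genes had a highest library as much as 2 times its lowest one, where 14.7% of all genes from 5 CPM did. So few genes cannot be told apart from that share. Gsn was the narrowest with a ratio of 1.30. All 5 were thus present in each library, beside RNA of epithelial, endothelial and immune cells at the summed levels given above. The 5 genes were chosen with earlier results of these data known, so their presence describes the libraries and is no independent test of the label.

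The level of Gsn is summed over transcripts that begin at several places, because the deposited table counts genes and not transcripts. Gsn lies on chromosome 2 (mm10, 35256380 to 35307892, plus strand), and RefSeq lists 3 start sites for it in the promoter table of the same build (GRCm38.p6). The 120 bases before each start are shown because this single gene takes more of the counts than any other. Capitals mark matches to the GC box, GGGCGG on either strand, the kind of element bound by Sp1-family factors.

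Gsn, start 1, chr2:35256239-35256358 (plus strand): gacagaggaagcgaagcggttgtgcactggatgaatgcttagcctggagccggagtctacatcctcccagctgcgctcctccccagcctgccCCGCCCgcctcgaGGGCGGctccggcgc

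Gsn, start 2, chr2:35266624-35266743 (plus strand): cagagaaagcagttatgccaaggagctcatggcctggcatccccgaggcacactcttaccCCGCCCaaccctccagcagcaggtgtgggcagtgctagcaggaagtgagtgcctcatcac

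Gsn, start 3, chr2:35282260-35282379 (plus strand): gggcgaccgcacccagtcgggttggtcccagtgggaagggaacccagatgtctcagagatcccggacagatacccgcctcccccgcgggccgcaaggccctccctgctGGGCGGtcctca

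All 3 windows hold a GC box, at 28 and 15 bases before start 1, 60 bases before start 2 and 12 bases before start 3. None of them holds TATAAA within these bases. A GC box occurs in the 250 bases before the start of 35.4% of all 27025 genes in the table, so its presence is common. Which of the 3 starts the counted RNA came from cannot be read from gene-level counts.

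In all, 14821 genes reached a mean of 1 CPM, 9624 reached 10 CPM, 1905 reached 100 CPM and 109 reached 1000 CPM. Those 109 genes held 27.1% of all counts. The 100 most abundant genes of each library held 27.1%, 26.8%, 27.6% and 24.3%, lowest in control 4. Genes encoded in the mitochondrial genome took only 1.37% to 1.49%.

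Matrix genes and genes of the immediate early response were frequent among the top 20 by CPM. In CPM, Gsn was followed by Thbs1, which encodes the matrix glycoprotein thrombospondin 1, with 4600.4, 10222, 13606 and 5121 CPM. Thbs1 was high in controls 2 and 3 and low in controls 1 and 4, a ratio of 2.96. Col3a1 and Col1a2, chains of the main fibrillar collagens, had 9756, 8084, 6115 and 4296 CPM and 8182, 7890.1, 5379 and 3860.1 CPM. Both were highest in control 1 and lowest in control 4. Fos, a subunit of the AP-1 transcription factor, had 5485, 4833, 6507 and 5156 CPM and thus varied little. Lrp1, an endocytic receptor for many matrix and plasma proteins, had 5171, 4955, 5161 and 4931 CPM, a ratio of only 1.05. C3, the central complement component, had 4359, 4761, 5273 and 3968 CPM. The other genes among the top 20 by CPM were Ltbp4, Col1a1, Mgp, Egr1, mt-Co1, Bgn, Nr4a1, Fosb, Sparcl1, Junb, Zfp36, Ccn1 and Eln. Scaled per kb of exon, the order changed. Gsn stayed first at 9481 CPM per kb, followed among protein-coding genes by Mgp, an inhibitor of calcification in the matrix, at 4048 CPM per kb. The mitochondrial mt-Co1 came next at 2947 CPM per kb, then Fos at 2336 CPM per kb, Inmt at 2220.2 CPM per kb, Ccn1 at 1921 CPM per kb and Junb at 1782 CPM per kb.

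**Figure D1:**
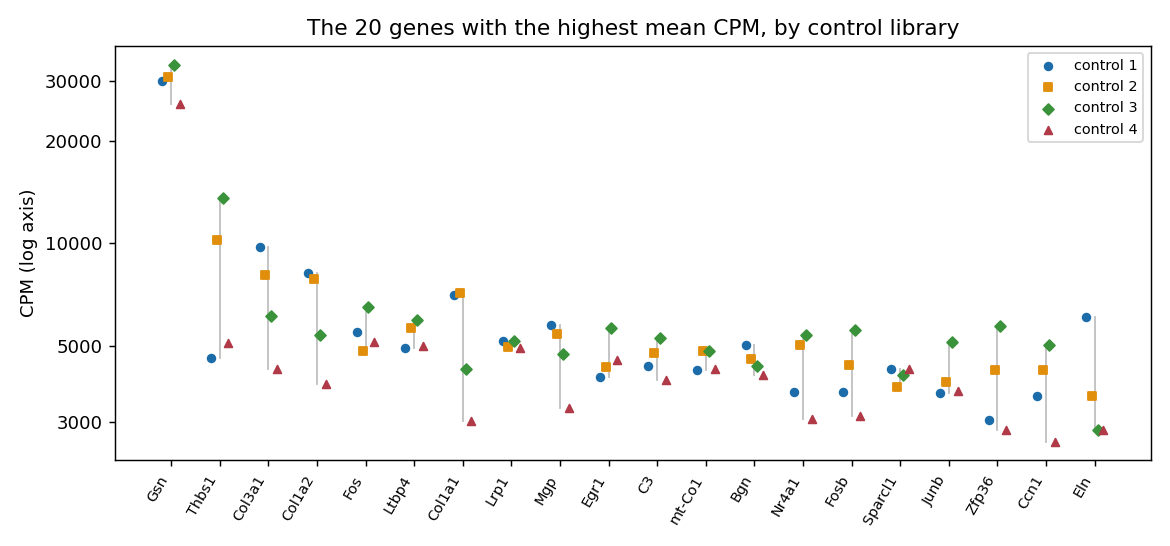
CPM (log axis) of the 20 genes with the highest mean, with 1 symbol per control library and a grey line from the lowest to the highest. Gsn lies between 25622 and 33414 CPM, Thbs1 splits into controls 2 and 3 above controls 1 and 4, and the collagen genes Col3a1, Col1a2 and Col1a1 are lowest in control 4.

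Matrix genes were the most abundant class. The 198 listed genes held 13.8% of all counts, 160 of them reached 10 CPM, and their median level was 31.8 CPM per kb. Fibrillar collagens were led by Col1a1 at 819.8 CPM per kb, Col3a1 at 719.5 CPM per kb and Col1a2 at 509 CPM per kb. Col1a1 had 7072, 7148, 4278 and 3024 CPM, with control 4 lowest and controls 1 and 2 alike. The 11 fibrillar collagen genes summed to 28474, 26489, 18084 and 12859.9 CPM, and 9 of the 10 that reached 5 CPM were lowest in control 4, the lowest library for 31.3% of all genes from 5 CPM. Among other collagens, the microfibrillar Col6a1 led at 547 CPM per kb. Basement membrane collagens ran differently: Col4a1 had 1902, 1125, 1293 and 1869 CPM, so that control 4 was close to control 1 and above controls 2 and 3. Elastic fibre genes were led by Ltbp4, which anchors latent TGF-beta in the matrix, with 4936, 5633, 5967 and 5004 CPM. Eln, the elastin gene, had 6089.8, 3579.7, 2843 and 2847 CPM, highest in control 1. Lox, which cross-links collagen and elastin, went the other way with 665, 488, 481 and 1084 CPM, highest in control 4. Small proteoglycans that bind collagen fibrils were abundant: Bgn had 5036, 4597, 4363 and 4107 CPM and varied little, whereas Dcn had 3719, 4215, 4069 and 1921 CPM and was lowest in control 4. Ogn, a related proteoglycan, was highest in control 4 with 1556, 1334, 1437 and 1959 CPM. Of the matrix glycoproteins, Sparcl1 was the narrowest with 4279.5, 3789.9, 4105 and 4293 CPM, a ratio of 1.13. Sparc, its close relative, had 4742, 3866, 2132 and 1944 CPM, a ratio of 2.44. Among enzymes and inhibitors, Serping1, the inhibitor of the first complement component, led with 2929, 2739, 2703 and 2546 CPM.

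Ligand genes were the class with the smallest share. The 183 listed genes held 0.882% of all counts, 81 reached 10 CPM, 8 had no counts in any library, and the median level was 2.67 CPM per kb. Gas6, the ligand of the TAM receptor tyrosine kinases, was the most abundant at 394 CPM per kb and had 1039, 979, 1019.6 and 976 CPM. Cxcl14, a chemokine, followed at 228 CPM per kb and had 377, 315, 674 and 299.8 CPM, highest in control 3. Slit3, a guidance ligand for Robo receptors, had 681, 596, 817 and 591 CPM. Fgf7 and Fgf10, which signal to lung epithelium, had 139, 104, 106 and 129.8 CPM and 114, 155, 144 and 143 CPM. Neither reached a ratio of 2 between libraries. Among ligands of the BMP and TGF-beta family, Tgfb3 led at 94.1 CPM per kb with 296, 468, 314 and 195 CPM, highest in control 2. Bmp5 had 242, 273, 248 and 231 CPM and Bmp4 had 100.5, 101, 97.1 and 124 CPM, both with ratios under 2. Wnt ligands were low: Wnt9a had 54.5, 85.8, 52.9 and 38.9 CPM, Wnt5a had 75.9, 98.2, 53.3 and 58.7 CPM and Wnt2, a canonical ligand made by lung mesenchyme, had 22.6, 26.03, 27.5 and 25.5 CPM. Of the 23 genes for Wnt ligands and R-spondins, 8 reached 10 CPM and none reached 100 CPM. Cytokines were uneven. Il6 had 136, 325, 316 and 133 CPM and Lif, a cytokine of the same family, had 127, 327, 327 and 46.4 CPM, with controls 2 and 3 above controls 1 and 4 for both. Vegfd, which acts on lymphatic vessels, had 133, 149.8, 133 and 205 CPM.

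Receptor genes held 2.06% of all counts over 199 matched genes, with a median of 4.81 CPM per kb, and 139 reached 10 CPM. Pdgfra was the most abundant receptor tyrosine kinase at 176 CPM per kb, followed by Axl, a receptor for Gas6, at 90.3 CPM per kb, and Ddr2, a receptor for fibrillar collagen, at 72.02 CPM per kb. Pdgfrb, the sister of Pdgfra that marks pericytes and other mural cells, stood at 46.3 CPM per kb and had 259.6, 349.9, 237 and 169 CPM, lowest in control 4. Fgfr1 and Fgfr3 had 403, 451, 374 and 404 CPM and 184, 183, 169 and 177 CPM. Tgfbr2, the type II TGF-beta receptor, had 1099, 958, 977 and 1047 CPM and was the narrowest of the BMP and TGF-beta receptors. Tgfbr3, the co-receptor betaglycan, had 497, 425, 466 and 781 CPM, highest in control 4. Fzd1 was the most abundant Frizzled at 55.7 CPM per kb, and Ptk7, a Wnt co-receptor, had 220.4, 219, 231 and 228 CPM. Notch2 was the leading Notch receptor with 199, 217, 217 and 225 CPM, and Notch4, an endothelial gene, had 3.06, 1.36, 1.99 and 16.2 CPM, highest in control 4. Ifngr1, a chain of the interferon-gamma receptor, led the cytokine receptors with 369, 203, 298 and 502 CPM, and Tnfrsf1a had 218, 194, 213 and 195 CPM. The thrombin receptor F2r and the endothelin receptor Ednra led the G protein-coupled receptors at 144 CPM per kb and 47.1 CPM per kb. Among integrins, Itga8, typical of alveolar fibroblasts, had 708, 979.8, 1059.9 and 1347 CPM, lowest in control 1 and highest in control 4.

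Transcription factor genes held 1.73% of all counts over 198 genes. Their median level was 2.24 CPM per kb, 101 genes reached 10 CPM, and 25 had no counts in any library. The factors with known roles in lung mesenchyme were present in every library. Tbx4, whose enhancer is used to mark lung mesenchyme, had 281, 229.7, 219 and 319 CPM, and Tbx2 had 475, 377, 337 and 493 CPM. Tbx5 had 82.7, 63.8, 66.2 and 72.7 CPM and Tbx3 had 52.5, 44.6, 51.4 and 55.4 CPM. Foxf1, a Hedgehog target in lung mesenchyme, had 123, 216, 181 and 137 CPM, and Tcf21, a marker of lipofibroblast-type cells, had 152, 182, 174 and 273 CPM. The mesenchymal factors with the highest levels per kb were Id3 at 504 CPM per kb, Cebpb at 465 CPM per kb and Cebpd at 408 CPM per kb. Among nuclear receptors Nr4a1, which is also an immediate early gene, led at 1224 CPM per kb.

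Hox genes, which encode position along the body axis, formed a sharp pattern. Of 39 Hox genes, 14 reached a mean of 1 CPM and 14 had no counts in any library. All 14 that reached 1 CPM were from the Hoxa or Hoxb cluster, and none was numbered above 8. Hoxa5, which is needed for lung patterning, stood far above the rest at 94.8 ± 8.90 CPM per kb (SD, n = 4), with 197, 186, 159 and 169 CPM. The next was Hoxb4 at 15.5 ± 2.66 CPM per kb (SD, n = 4), followed by Hoxa2 at 13.1 ± 1.30 CPM per kb (SD, n = 4), Hoxb5 at 10.9 ± 2.51 CPM per kb (SD, n = 4) and Hoxb3 at 10.8 ± 1.58 CPM per kb (SD, n = 4). Neighbours in this order after Hoxa5 overlapped in their spread. Hoxa7 was the widest with 11.5, 9.46, 10.9 and 18.3 CPM, a ratio of 1.94. None of the 11 Hox genes at or above 5 CPM reached a ratio of 2, against 14.7% of all genes, a share that so short a list cannot be told apart from. Among genes with no counts in any library were Hoxa10, Hoxa11, Hoxa13, Hoxc8 to Hoxc13 and Hoxd10 to Hoxd12.

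**Figure D2:**
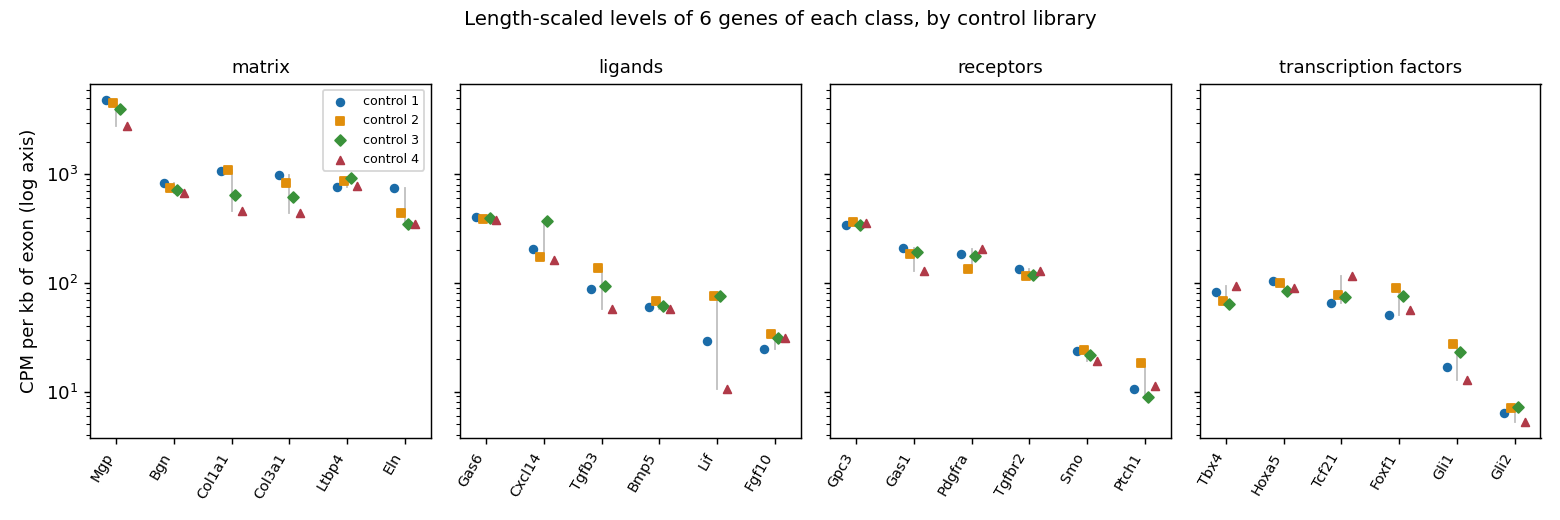
CPM per kb of exon (log axis) for 6 genes of each of 4 classes, with 1 symbol per control library. Mgp lies highest, Lif spreads furthest with controls 2 and 3 above the others, and Gas6, Gpc3, Tgfbr2 and Hoxa5 keep their 4 symbols close together.

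Hedgehog pathway genes were measured from receptor to target, while the ligands were nearly absent. Shh had 0.12, 0.21, 0.087 and 0.44 CPM, Ihh had 0.29, 0.24, 0.14 and 0.38 CPM and Dhh had 0.30, 0.74, 0.23 and 0.13 CPM. Each was under 1 CPM in each library, and 2 of these 12 values, Shh in controls 1 and 3, lay at or under the level of 3 fragments. Receptors and co-receptors were abundant. Gpc3, a cell-surface glypican that binds Hedgehog ligands, had 919, 976, 920.4 and 965 CPM and a ratio of 1.06. Gas1, a co-receptor, had 615, 546, 573 and 382 CPM, lowest in control 4. Cdon, a co-receptor related to Boc, had 138, 261, 170.1 and 52.4 CPM, and was the widest of these genes with control 2 highest and control 4 lowest. Ptch1, the main receptor and itself a target, had 151, 258, 127 and 159.97 CPM, with control 2 highest and the other 3 between 127 and 161 CPM. Smo, the transducer, had 134, 137, 121 and 108 CPM. The glypican Gpc5 had no counts in any library.

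The Gli factors formed the order Gli1 over Gli2 over Gli3 per kb of exon. Their levels were 20.01 ± 6.61 CPM per kb (SD, n = 4), 6.44 ± 0.86 CPM per kb (SD, n = 4) and 3.59 ± 0.77 CPM per kb (SD, n = 4), and within each library the same order held. Gli1, the factor that the pathway itself induces, had 83.3, 137, 116 and 63.4 CPM, a ratio of 2.17 between control 2 and control 4. Gli2, whose locus drives the Cre and therefore the sort, had 43.4, 48.4, 48.98 and 36.2 CPM. Gli3, which mainly acts as a repressor, had 29.9, 37.6, 43.3 and 27.1 CPM. Among 24 genes for components of the pathway, 23 reached 10 CPM. These included the kinase subunit gene Prkar1a at 102 CPM per kb, Gnas, which encodes a G protein subunit that restrains the pathway, at 68.4 CPM per kb, and Ift172, a gene of cilium transport, with 61.9, 65.4, 64.3 and 64.3 CPM. The 17 listed targets all exceeded 1 CPM on average. Those with the highest levels per kb were Cdkn1a at 91.8 CPM per kb, Hsd11b1 at 87.9 CPM per kb and Foxf1 at 68.03 CPM per kb, genes that other pathways also regulate. Foxl1, a forkhead factor of Hedgehog-responsive mesenchyme, was the widest target with 20.3, 39.8, 21.7 and 11.4 CPM. Control 2 was the highest library for 9 of the 16 targets at or above 5 CPM, against 21.6% of all genes.

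**Figure D3:**
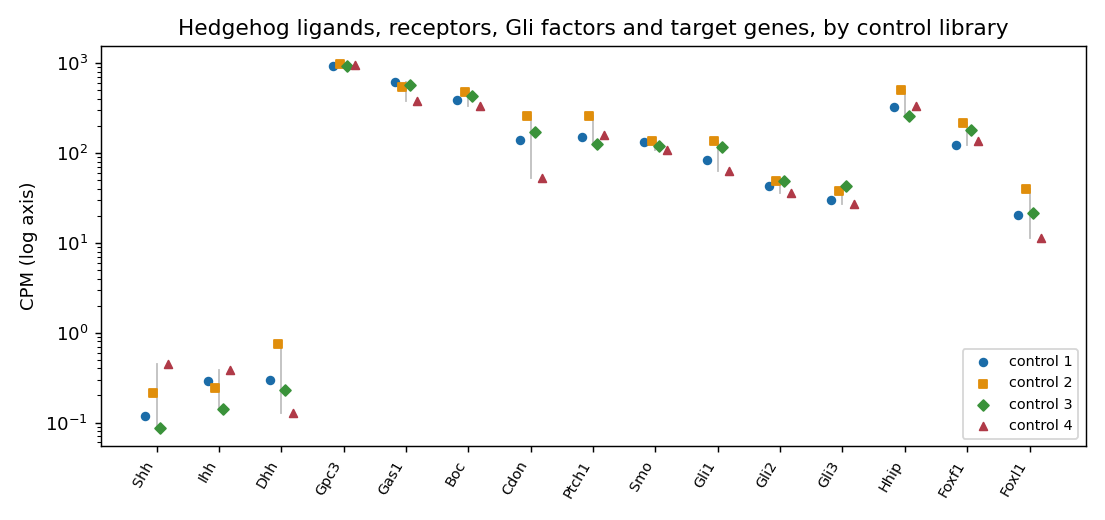
CPM (log axis) of Hedgehog ligands, receptors and co-receptors, Smo, the Gli factors and target genes, with 1 symbol per control library. The 3 ligand genes lie below 1 CPM and all other genes shown above 10 CPM, and Cdon and Foxl1 spread the most among those.

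The stretch before the start of Hhip is shown because Hhip is a standard Hedgehog target and a marker of these cells. RefSeq promoter entries were found for 9 of the 17 listed targets. Within 250 bases before the start, none of the 9 held the Gli core GACCACCCA on either strand, which 0.255% of all genes hold. A GC box was held by 8 of the 9, against 35.4% of all genes, and that of Hhip lies outside the bases shown. Hhip also held a CRE, TGACGTCA, the palindrome bound by CREB-family factors and by some AP-1 dimers, 75 bases before its start. It is marked in capitals in the 120 bases before the start, and 1.77% of all genes hold one within 250 bases.

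Hhip, chr8:80058009-80058128 (minus strand): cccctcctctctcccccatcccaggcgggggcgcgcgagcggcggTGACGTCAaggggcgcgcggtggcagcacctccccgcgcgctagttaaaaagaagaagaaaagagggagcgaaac

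A match is only a match of letters, and its absence from this window says nothing of more distant elements.

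Immediate early genes, which cells switch on within minutes of stimulation or of tissue handling, were among the most abundant genes of every library. The 21 listed genes of the AP-1 and early growth response group held 4.27% of all counts, and 12 exceeded 1000 CPM on average. Their summed level was 38815, 42842, 53917 and 35491 CPM, highest in control 3 and lowest in control 4, a ratio of 1.52. Junb and Jund, other AP-1 subunits, had 3637, 3917, 5155 and 3695 CPM and 1749, 2066, 2493 and 1624 CPM. Egr1, a zinc finger factor of the same response, had 4058, 4338, 5633 and 4557 CPM. Dusp1, a phosphatase that switches off MAP kinases, had 3221, 2824, 3989 and 2141 CPM, and Btg2, an antiproliferative gene, had 1911, 1929, 2262 and 1855 CPM. Zfp36, which destabilises cytokine messages, had 3029, 4247, 5714 and 2839 CPM. Control 3 was the highest library for 18 of the 21 genes, against 22.5% of all genes from 5 CPM. Egr2 was the widest with 107, 149.8, 166 and 38.3 CPM, lowest in control 4. Lungs were digested with enzymes, per the labels' protocols, and no library made without digestion is among these samples, so the part of dissociation in these levels was not tested.

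The promoters of 4 of these abundant early genes are shown because genes of this response rank among the most abundant in all 4 libraries. Capitals mark the CRE (TGACGTCA), the TATA box (TATAAA) and the GC box (GGGCGG or its complement CCGCCC). Ccn1, which encodes a matrix protein that early-response signals also induce, is included beside 3 genes of the list.

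Fos, chr12:85473770-85473889 (plus strand): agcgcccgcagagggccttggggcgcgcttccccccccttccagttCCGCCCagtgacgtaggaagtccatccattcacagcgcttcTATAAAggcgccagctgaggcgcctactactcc

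Ccn1, chr3:145649986-145650105 (minus strand): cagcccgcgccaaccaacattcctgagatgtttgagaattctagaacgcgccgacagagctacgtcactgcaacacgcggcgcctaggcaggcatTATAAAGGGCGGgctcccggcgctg

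Dusp1, chr17:26508473-26508632 (minus strand): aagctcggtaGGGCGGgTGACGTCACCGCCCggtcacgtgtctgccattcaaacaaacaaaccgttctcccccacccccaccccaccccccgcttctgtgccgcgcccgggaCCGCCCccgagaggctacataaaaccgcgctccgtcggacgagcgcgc

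Btg2, chr1:134079156-134079335 (minus strand): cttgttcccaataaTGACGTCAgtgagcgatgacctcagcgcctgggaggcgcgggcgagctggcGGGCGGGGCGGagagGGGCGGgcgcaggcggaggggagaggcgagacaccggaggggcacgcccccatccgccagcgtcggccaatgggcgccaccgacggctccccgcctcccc

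Fos and Ccn1 hold a TATA box 33 and 25 bases before the start. Dusp1 and Btg2 hold a CRE 143 and 166 bases before it. Over the 17 genes of the list with a promoter entry, 15 hold a GC box within 250 bases, against 35.4% of all genes. So do 8 of 9 Hedgehog targets and 13 of 20 NF-kB and acute-phase genes with an entry, so the GC box is not particular to early genes. A CRE is held by 2 of the 17 and a TATA box by 1, against 1.77% and 14.3% of all genes. The AP-1 site TGACTCA was found in none of the 17 and in 5.16% of all genes.

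Most genes agreed closely between libraries. Over the 11421 genes at or above 5 CPM, the SD of log2 CPM had a median of 0.20, which is a 1.15-fold SD. Genes whose highest library was at least 2 times the lowest numbered 1677, or 14.7%. Without control 4 they numbered 791, or 6.97%. The share was 27.2% of genes between 5 and 10 CPM, 12.3% between 10 and 100 CPM, 11.97% between 100 and 1000 CPM and 19.3% from 1000 CPM. Genes at least 2-fold higher in a single library than in each other library made up 0.166%, 0.306%, 0.271% and 0.849% of all for controls 1 to 4, and genes at most 0.5 times the level of each other library 0.298%, 0.385%, 0.219% and 1.20%. The narrowest genes from 100 CPM had almost the same level in each library. Cic, a transcriptional repressor, had 198, 199, 198 and 197 CPM, Capza2, which caps actin filaments, had 100.4, 101, 99.9 and 101 CPM, and Atp5b, a subunit of ATP synthase, had 322, 318, 323 and 322 CPM. Others among the 20 narrowest were Hspa9, Ptpra, Rarres2, Rab7, Ncl, Pkd1, Rac1 and Tmsb10.

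**Figure D4:**
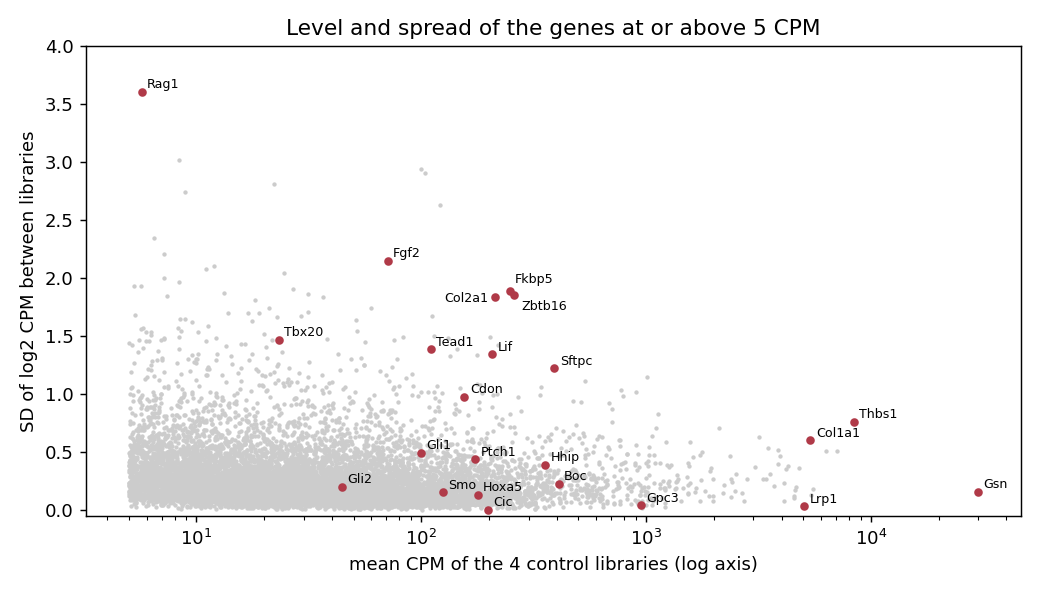
Mean CPM (log axis) and SD of log2 CPM between the 4 control libraries for genes at or above 5 CPM in grey, with selected genes in red. Gsn, Lrp1, Gpc3 and Cic lie low, Fkbp5, Zbtb16, Col2a1 and Fgf2 near 2, and 9 genes, Xist and Y-linked genes among them, lie above the upper limit of 4.

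All 4 classes had more genes with a 2-fold range than the 14.7% over all genes. They numbered 67 of 166 matrix genes (40.4%), 49 of 97 ligand genes (50.5%), 58 of 161 receptor genes (36.0%) and 36 of 115 transcription factor genes (31.3%). Without control 4 the counts were 32, 25, 31 and 20 of the same genes, or 19.3%, 25.8%, 19.3% and 17.4%, against 6.97% over all genes. Of the matrix genes, 23 were lower in control 4 by at least 2-fold than in each other library, against 1.20% over all genes. Some lists had a smaller share of such genes than the whole table. These were the 5 markers with 0 of 5, the Hox genes with 0 of 11, the mitochondrially encoded genes with 0 of 17, the BMP and TGF-beta receptors with 1 of 11, and the Hedgehog pathway components with 2 of 23, namely Cdon and Disp1. Lists this short hold too few genes to tell such counts apart from the 14.7% over all genes.

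Cartilage genes differed widely between libraries. All 12 cartilage genes at or above 5 CPM had a 2-fold range, with or without control 4 (14.7% and 6.97% of all genes). Col2a1, the collagen of cartilage, had 305, 425, 95.95 and 25.5 CPM, and Acan, its main proteoglycan, had 114, 169, 26.4 and 21.3 CPM. Chad and Comp, which bind cartilage collagens, had 282, 404, 73.6 and 47.1 CPM and 78.8, 175, 32.3 and 17.1 CPM. Sox9, the transcription factor of chondrocytes, had 30.8, 57.4, 25.4 and 11.6 CPM. The 15 genes summed to 1424, 2214, 445 and 226 CPM. Control 2 was highest for all 12, against 21.6% of all genes, and 11 of them were lowest in control 4, against 31.3%. Several matrix genes named above belong to both lists, so part of the spread of the matrix class is that of cartilage genes.

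Most NF-kB and acute-phase genes were highest in control 3. It was the highest library for 21 of 27 such genes and for 13 of 16 heat shock chaperones, against 22.5% of all genes. Of the 27 genes of the NF-kB and acute-phase list at or above 5 CPM, 20 had a 2-fold range, against 14.7% of all genes, and 19 had one without control 4, against 6.97%. Nfkbia, the feedback inhibitor of NF-kB, had 300.2, 549, 817 and 279 CPM, Tnfaip6, a matrix-binding anti-inflammatory protein, had 136, 376, 437 and 157 CPM, and Cxcl1, a neutrophil chemokine, had 83.5, 213, 359 and 90.9 CPM. Lif and Il6 followed the same order of libraries, with controls 2 and 3 above the others. Has1, a hyaluronan synthase, had 202, 505, 511 and 128 CPM. Nfkb1, a subunit of NF-kB itself, was the narrowest member with 137, 126, 154 and 117 CPM. Hspa1a and Hspa1b, inducible heat shock proteins whose nearly identical copies the authors' counting could split, had 436, 1208, 1579 and 388 CPM and 419.7, 1476, 1754 and 398 CPM. Hsf1, the factor that switches them on, had 49.7, 45.4, 50.4 and 47.9 CPM, and Hsp90ab1, a constitutive chaperone, had 991, 879.8, 982 and 992 CPM. Nr4a3, an early gene, had 362, 946, 1109 and 319 CPM.

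Genes known to respond to glucocorticoids ran in another order, with control 2 lowest. This list was drawn up after the values were seen and is only a description. Fkbp5, a chaperone of the glucocorticoid receptor, had 359, 26.2, 128 and 477 CPM. Zbtb16, a zinc finger factor, had 286, 26.8, 213 and 511 CPM, and Tsc22d3, which encodes the glucocorticoid-induced leucine zipper, had 506, 186, 478 and 889 CPM. Angptl4, an inhibitor of lipoprotein lipase, had 278, 49.9, 102 and 450.2 CPM. Control 2 was the lowest library for 12 of the 16 listed genes, against 23.9% of all genes, and 5 of them were there at most 0.5 times the level of each other library, against 0.385% over all genes. Not all genes of the list had this order: Klf9 had 556, 433, 582 and 608 CPM, and Dusp1, Mt1 and Mt2 were highest in control 3. Of 17 circadian clock genes at or above 5 CPM, 7 had a 2-fold range, against 14.7% of all genes. Without control 4, 3 of the 17 had one, against 6.97%. Control 4 was the lowest library for 9 of them, against 31.3% of all genes, and the 18 listed genes summed to 2001, 2413, 2355 and 1959 CPM. Nr1d1, a repressor of the clock, had 229, 141, 55.2 and 306 CPM, and Dbp had 7.80, 4.30, 1.67 and 9.77 CPM, both lowest in control 3 and highest in control 4, while Arntl, the clock's activator, had 70.2, 76.5, 80.9 and 65.4 CPM. The labels give no time of collection.

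Most markers of alveolar fibroblasts were highest in control 4 and most adventitial ones lowest there, while those of airway-associated fibroblasts were mixed. Of 13 airway-associated markers, 4 were highest in control 4 and 4 lowest, against 34.4% and 31.3% of all genes. Their sum was 3107, 3018, 3088 and 3528 CPM and thus also highest in control 4. Control 2 was the highest library for 7 of the 13, against 21.6%. Of 19 alveolar fibroblast markers, 11 were highest in control 4, against 34.4% of all genes, and their sum was 12361, 13438, 14532 and 17583 CPM. Control 1 was the lowest library for 14 of the 19, against 2548 of the 11421 genes from 5 CPM. Mettl7a1 had 312, 318, 411 and 639 CPM and Limch1 had 1124, 1369, 1189 and 1797 CPM. Of 19 adventitial fibroblast markers, 18 were lowest in control 4, against 31.3% of all genes, and their sum was 40176, 42409, 43883 and 31313 CPM. Most of that sum was Gsn. Clec3b, a marker of adventitial cells, had 919, 857, 804 and 497 CPM, Igfbp4 had 1247, 1456, 1242 and 494 CPM and Pi16, a marker of fibroblasts with progenitor traits, had 593, 648, 571 and 327 CPM. Contractile genes of smooth muscle were measured in each library: Acta2 had 108, 184, 146 and 86.7 CPM and Myh11 had 55.98, 89.9, 55.5 and 30.5 CPM. Of the epithelial markers, Sftpc, the surfactant gene of alveolar type II cells, had 163, 189, 208 and 1003 CPM, and Sftpd had 6.54, 9.41, 7.03 and 47.6 CPM. Scgb1a1, of airway club cells, did not share that pattern and had 39.9, 58.4, 50.5 and 34.2 CPM. Among endothelial markers, Cdh5 had 4.52, 8.66, 7.50 and 44.9 CPM and Cldn5 had 1.79, 2.54, 2.65 and 16.8 CPM. Of the 12 at or above 5 CPM, 7 were at least 2-fold higher in control 4 than in each other library, against 0.849% over all genes. Cldn5, for example, reached that mean only through control 4, so the count cannot be read against that share. Pmp22, a gene of Schwann cells and of fibroblasts, had 738, 677, 765 and 299 CPM, lowest in control 4.

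Single libraries stood out for small gene groups. Control 1 held the highest level of all 8 thymocyte and T cell genes at or above 5 CPM, where it was highest for 21.5% of all genes. This list was also drawn up after the values were seen. Rag1, for example, reached that mean only through control 1, so the count cannot be read against that share. The 18 genes of the list summed to 285, 64.01, 35.8 and 32.3 CPM. Rag1, which rearranges antigen receptor genes, had 21.04, 1.59, 0.087 and 0.10 CPM, Cd8a had 23.3, 3.29, 1.55 and 0.62 CPM and Myb had 21.9, 2.58, 0.72 and 0.64 CPM. Top2a, a gene of dividing cells, had 16.2, 5.48, 2.97 and 4.04 CPM, also highest in control 1. Control 3 stood out for Tbx20, a T-box factor best known from heart and visceral mesothelium, with 9.35, 12.02, 65.1 and 6.52 CPM, for Ackr4, a decoy receptor for chemokines, with 2.18, 3.70, 26.3 and 1.08 CPM, and for Postn, a matrix protein of activated fibroblasts, with 82.6, 107, 225 and 40.4 CPM. Of 13 mesothelial markers, 10 were highest in control 3, against 22.5% of all genes, and Wt1, a transcription factor of mesothelium, had 3.55, 5.87, 9.61 and 1.90 CPM. Tead1, a partner of YAP, was low in control 3 alone, with 155, 149, 20.7 and 117 CPM.

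**Figure D5:**
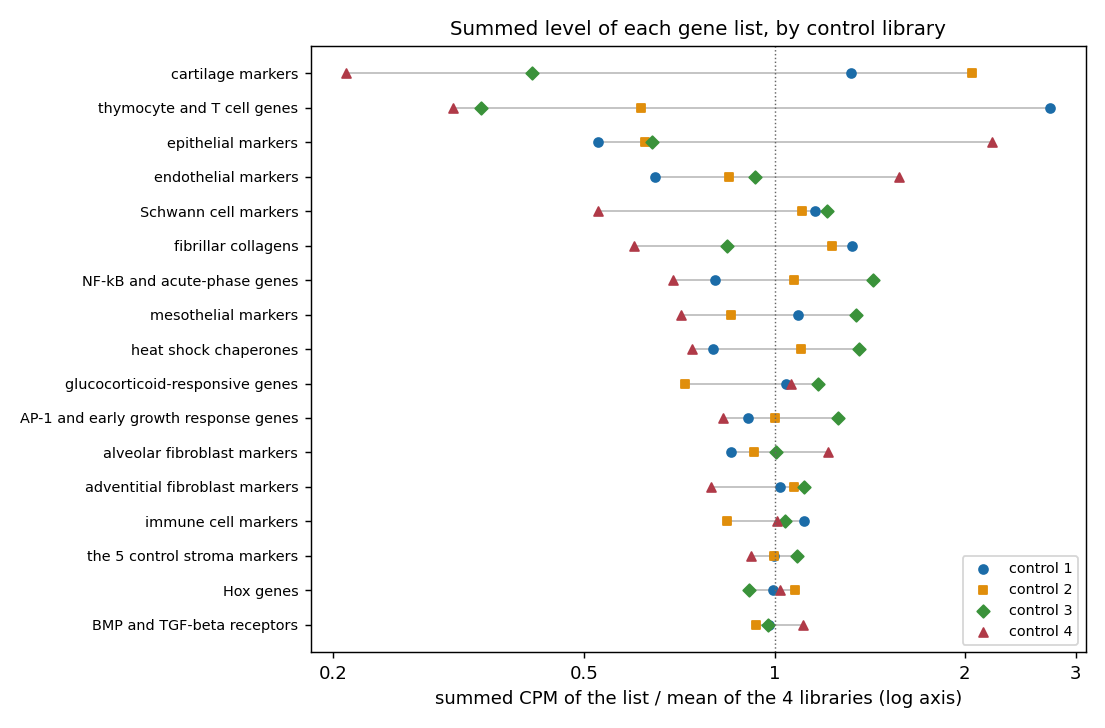
Summed CPM of each gene list in each control library, divided by the mean of the 4 libraries (log axis). The cartilage list spreads from 0.2 to 2 times its mean, epithelial and endothelial markers are highest in control 4, thymocyte and T cell genes in control 1, and the Hox genes, the BMP and TGF-beta receptors and the 5 markers of control stroma stay close to 1.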

How the data were processed

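The authors deposited 1 estimated count (expected count) per Ensembl gene and library, as whole numbers that needed no rounding, for 49671 gene identifiers. The 4 control columns were used. The other 4 value columns, those of the SmoM2 libraries, were not used. How they made each estimated count before they deposited the table is known only in part: HISAT, StringTie, FastQC and DESeq and the build mm10 appear in the submitters' processing notes, and their order, roles and versions are not given in the sources used here. Low values peaked about every 4 units, at 8, 12, 16 and 20 among others. The most frequent value from 1 to 40 was 5 and not 4, and 30 and 34 were further peaks. From these steps 1 fragment was taken as about 4 units. This reading is an inference from the values. Replicates are separate animals per the titles.

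Symbols, coordinates and exon lengths came from GENCODE M21 (mm10), which matched 99.3% of identifiers. TMM factors were estimated on the 17893 genes that pass edgeR's expression filter and applied to all identifiers to give CPM (edgeR 4.0.16, R 4.3.3). Spread is the SD of log2 CPM with a prior count of 2 among genes whose mean reached 5 CPM. The spread step was tested on simulated data. DESeq2 1.42.0 size factors were an alternative. Promoter sequences are from RefSeq (GRCm38.p6), read as the 250 bases before each start and searched on both strands.

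The members and 49 gene lists were chosen with earlier results of these data known, and 2 further lists after the values were seen. Genes were named by rule: markers and Gli genes, Ptch1 and Smo, the top 20 by CPM and by CPM per kb, in each list the top 5 per kb, the widest and the narrowest, and the 20 widest and 20 narrowest of all. Not every gene so named is given. Genes named outside the rule, chosen after their values were seen, were Acan, Disp1, Emcn, Epcam, Foxj1, Gpc5, Limch1, Lox, Ncr1, Nudt6, Pcdhgc3, Pi16, Sparc, Tlr4, Tnfaip6, Tsc22d3 and Hox genes of the ranges given.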

Additional observations from a re-analysis of the deposited data

Results flagged for a closer look

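Values far from the other 3 libraries were sought with Dixon's criterion, the gap to the nearest library over the whole range of the 4, at its 95% critical value. Chance alone passes about 1 in 20 of such groups. Of 56 summed lists checked, 4 passed, which is near that share. Of 189 genes named in the text, 22 passed, a number that cannot be read against chance because many of these genes were named for their wide range. Control 4 was the far library in 10 of them and always on the high side. The CPM were not log-transformed, and on that scale a fold drop spans less than an equal fold rise. Over all genes from 5 CPM, control 4 was at most 0.5 times each other library for 1.20%. It was at least 2 times each other library for 0.849%.

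Endothelial and epithelial genes made up most of the values that were far up in control 4. The ratios were 0.943 for Cldn5, 0.898 for Cdh5, 0.885 for Notch4, 0.856 for Tie1 and 0.881 for Cd36, and 0.946 for Sftpc and 0.930 for Sftpd. Bmp4 (0.855), Nudt6 (0.887) and the protocadherin Pcdhgb1 (0.967) also passed on the high side in control 4. Bmp4 and Nudt6 nevertheless lay within a narrow range, and the values of Pcdhgb1 are uncertain. The summed epithelial markers were highest there with a ratio of 0.933. The summed Schwann cell markers (0.846) and the summed matrix enzymes and inhibitors (0.882) were lowest there. Most of the Schwann sum, 780, 743, 814 and 354 CPM, was Pmp22, a gene of fibroblasts as well. The low sum therefore mainly gives the level of that gene and cannot be read as less Schwann cell RNA. The number of genes that were at most 0.5 times the level of each other library was itself far up in control 4, with a ratio of 0.830.

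Control 1 was far up for the T cell genes, with 0.882 for Cd8a, 0.909 for Myb, 0.929 for Rag1 and 0.874 for the summed thymocyte and T cell genes. It was far down for Hoxb2 (0.863) and for Rac1 (0.848), which nevertheless lay within a narrow range. Control 3 was far up for Tbx20 (0.906), Ackr4 (0.896) and Pcdhga9 (0.943) and far down for Pcdhb19 (0.960) and Tmsb10 (0.885). Control 2 was far up for Pcdhga2 (0.915) and far down for Hsp90ab1 (0.908).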

How the results depend on the processing

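The number of genes at or above 10 CPM stayed between 9559 and 9710 under every alternative run for it, and the share of counts in the 100 most abundant genes between 26.1% and 27.2%. The number of genes with a 2-fold range depended on the minimum level, with 3263 from 1 CPM and 829 from 20 CPM against 1677 from 5 CPM, since the minimum sets how many genes are counted. Leaving out each library in turn gave 791 to 1421, the lowest without control 4. The median spread of matrix genes, 0.37 on the log2 scale, ran from 0.24 without control 4 to 0.43 without control 3. The median level of receptor genes, 4.81 CPM per kb, ran from 4.92 to 5.29 when a library was left out. Dividing by the longest transcript in place of the merged exons raised the median levels to 41.5 CPM per kb for matrix, 3.39 for ligand, 6.26 for receptor and 2.86 for transcription factor genes, and kept the order of the classes. Library totals without TMM factors and DESeq2 size factors moved no median level of a class or list beyond its SD between libraries. No paired analysis was possible because a single group was described. Depth limits what can be said of genes near the level of 3 fragments, such as the Hedgehog ligands.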

Other observations

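Clustered protocadherins of the gamma group share their last exons, and the authors' counting could split them, so their values are uncertain. One variant at a time took a high value. Pcdhga2 had 7.42, 368, 3.99 and 34.8 CPM, Pcdhgb1 had 4.11, 16.3, 6.07 and 372 CPM and Pcdhga9 had 11.5, 31.9, 435 and 7.39 CPM, each high in a different library, and Pcdhgc3 had 406, 411, 438 and 344 CPM, high in all 4. In the beta group, Pcdhb19 was listed at 0 in control 3 alone, with 10.1, 9.68, 0 and 9.83 CPM, and Pcdhb22 had 16.6, 14.02, 12.6 and 0.79 CPM, low in control 4.

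Fgf2, a growth factor for fibroblasts and endothelium, had 11.3, 140.02, 8.84 and 124 CPM. It was high in controls 2 and 4, the libraries with high Xist, and the overlapping gene Nudt6, named here after its values were seen, had 1.52, 1.48, 1.52 and 1.80 CPM. Slc7a11, the cystine transporter, had 11.5, 13.96, 2.64 and 0.70 CPM, high in controls 1 and 2. Cfi, a complement regulator, had 5.29, 9.94, 6.85 and 0.50 CPM, and Tlr4, the receptor for bacterial lipopolysaccharide, named after its values were seen, had 26.9, 29.3, 32.3 and 2.91 CPM. Both were lowest in control 4. Exosc6, a subunit of the RNA exosome, had 6.93, 0.46, 5.10 and 8.68 CPM, low in control 2 alone. Tie1, an endothelial receptor, had 1.27, 2.93, 3.22 and 14.8 CPM, and Cd36, a fatty acid receptor of endothelium and fat cells, had 13.6, 16.4, 19.1 and 60.05 CPM, both highest in control 4. Ighm, the heavy chain of immunoglobulin M, had 24.2, 93.1, 79.99 and 9.56 CPM, high in controls 2 and 3.

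Gm10925, Gm29216 and Gm28661, copies of mitochondrial genes in the nuclear genome, had 1727 CPM per kb, 1459.6 CPM per kb and 1341 CPM per kb. They share reads with the mitochondrial genes and their levels are uncertain for that reason.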
